A study of Homo sapiens with 18 samples.

Results

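The LINC genes, listed under symbols made of LINC and a number, were followed through LNCaP cells given PARP inhibitors or siRNAs against PARP1 and PARP2. The 117 genes were chosen by their control levels: a LINC symbol and a mean of at least 0.5 over the DMSO libraries (110 genes) or over the siNC libraries (71 genes), with 64 genes chosen by both. They come from 247 LINC symbols among the 22027 genes listed in either of the study's expression tables. LNCaP is an androgen-responsive line from a human prostate cancer metastasis. The inhibitor experiment lasted 24 h, with cells in the vehicle DMSO or in UPF1069, olaparib or veliparib at 10 uM each. The cells of the knockdown experiment were harvested 72 h after transfection. They had received siNC, the control siRNA, or siPARP1-A, siPARP1-B, siPARP2-A or siPARP2-B, here written siPARP1_A to siPARP2_B. All groups were of the same line in RPMI medium with fetal bovine serum, and each of the 9 groups held 2 libraries, which the series calls biological duplicates.

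Long intergenic noncoding RNAs are transcribed from their own promoters between protein-coding genes, are mostly capped, spliced and polyadenylated, and are not known to encode a protein. Some act on chromatin or neighbouring genes, some bind proteins or other RNAs in the cytoplasm, and for many no function is known. A LINC symbol is provisional: a gene may later be renamed for a function, for a coding neighbour whose start it shares (the ending -DT, divergent transcript), or for a small protein found in it. The enzymes PARP1 and PARP2 bind broken DNA and attach poly(ADP-ribose) to themselves and to nearby proteins. Both are inhibited by olaparib and veliparib, and UPF1069 is sold as an inhibitor of PARP2.

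The name intergenic holds for only part of the 117 genes. GENCODE v29, matched by identifier, types 80 as lincRNA, 11 as antisense, 12 as processed transcript, 7 as protein-coding and 6 as pseudogenes, and 1 was not found. The symbol is unchanged for 81 genes and 35 now have another. A protein-coding gene starts on the opposite strand within 1000 bases for 22 of them, 15 overlap a coding gene on the opposite strand and 9 overlap one on the same strand. The library kit does not mark strand and no strand setting for the counting is given in the sources used here, so the reads of these genes and of an overlapping gene cannot be told apart. All 117 were tested in the inhibitor experiment. In the siRNA experiment 114 had a row and 105 passed the minimum mean of 0.25, and they are counted over these 105.

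Promoters of 88 of the 117 genes were found in RefSeq (GRCh38.p14), as the 250 bases before and the 50 bases after the start. Those of 6 genes whose values carry the results are printed below, 5′ to 3′, with each CG dinucleotide in capitals, because they show the contrast between CG-poor and CG-rich starts among the genes that moved. LINC01133 (chr1:159960974-159961273, plus strand), LINC01354 (chr1:234531730-234532029, minus strand) and LINC00161 (chr21:28539068-28539367, plus strand) start at CG-poor sequence with 1, 8 and 1 CG. LINC00271, now AHI1-DT (chr6:135497551-135497850, plus strand), LINC01184, now SLC12A2-DT (chr5:128083126-128083425, minus strand), and LINC00936, now ATP2B1-AS1 (chr12:89708705-89709004, plus strand), hold 41, 29 and 43 CG.
LINC01133: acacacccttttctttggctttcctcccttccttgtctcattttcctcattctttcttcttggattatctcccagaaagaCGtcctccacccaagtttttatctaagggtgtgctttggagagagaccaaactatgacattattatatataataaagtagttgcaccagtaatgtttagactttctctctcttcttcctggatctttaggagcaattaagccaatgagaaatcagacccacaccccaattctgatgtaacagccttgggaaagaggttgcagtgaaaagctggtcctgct
LINC01354: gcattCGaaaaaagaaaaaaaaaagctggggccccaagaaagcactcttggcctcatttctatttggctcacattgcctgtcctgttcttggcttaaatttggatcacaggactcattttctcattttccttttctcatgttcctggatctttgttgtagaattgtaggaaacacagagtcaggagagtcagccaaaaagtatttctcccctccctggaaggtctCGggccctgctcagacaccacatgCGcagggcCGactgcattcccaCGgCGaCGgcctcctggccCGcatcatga
LINC00161: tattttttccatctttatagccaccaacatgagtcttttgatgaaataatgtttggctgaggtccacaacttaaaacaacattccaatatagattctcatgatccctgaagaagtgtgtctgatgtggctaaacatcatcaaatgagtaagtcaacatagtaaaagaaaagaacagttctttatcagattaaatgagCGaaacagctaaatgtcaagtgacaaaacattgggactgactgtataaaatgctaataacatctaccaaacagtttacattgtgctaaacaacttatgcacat
LINC00271: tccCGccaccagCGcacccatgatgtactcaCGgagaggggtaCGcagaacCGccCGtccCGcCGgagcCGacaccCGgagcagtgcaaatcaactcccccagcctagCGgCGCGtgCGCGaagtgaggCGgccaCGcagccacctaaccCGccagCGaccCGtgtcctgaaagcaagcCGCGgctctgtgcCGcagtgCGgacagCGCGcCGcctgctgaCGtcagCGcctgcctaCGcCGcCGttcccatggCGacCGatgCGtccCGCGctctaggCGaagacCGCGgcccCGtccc
LINC01184: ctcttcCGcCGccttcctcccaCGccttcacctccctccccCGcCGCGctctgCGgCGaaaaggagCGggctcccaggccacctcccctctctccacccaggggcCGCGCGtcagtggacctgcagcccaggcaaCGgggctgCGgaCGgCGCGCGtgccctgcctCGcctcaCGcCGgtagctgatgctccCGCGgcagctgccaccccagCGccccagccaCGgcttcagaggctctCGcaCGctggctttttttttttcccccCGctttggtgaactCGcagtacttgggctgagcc
LINC00936: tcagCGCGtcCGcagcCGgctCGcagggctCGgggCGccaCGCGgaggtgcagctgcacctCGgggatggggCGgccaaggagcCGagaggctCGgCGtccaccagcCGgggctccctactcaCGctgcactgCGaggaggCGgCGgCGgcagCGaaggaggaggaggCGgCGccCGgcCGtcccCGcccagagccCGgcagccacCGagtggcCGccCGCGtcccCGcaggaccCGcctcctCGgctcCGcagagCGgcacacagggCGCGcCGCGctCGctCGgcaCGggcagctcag

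Values of the inhibitor experiment are CPM, reads per M reads of a library, and those of the siRNA experiment are reads per M of a scaled library size, called normalised reads below. The tables were normalised apart and levels are not compared across them by a test. Recovered depth ran from 26.4 to 35.7 M reads in the inhibitor and from 15.5 to 18.6 M in the siRNA libraries, and a gene with 3 reads in a library had 0.0841 to 0.113 CPM in the former and 0.169 to 0.207 normalised reads in the latter. PARP1 was at 452 and 479 normalised reads in the siNC libraries, 4.78 and 5.67 with siPARP1_A, 8.99 and 9.05 with siPARP1_B, 409 and 395 with siPARP2_A and 160.5 and 145 with siPARP2_B. PARP2 was at 28.96 and 25.8 with siNC, 22.1 and 20.9 with siPARP1_A, 19.8 and 18.0 with siPARP1_B, 3.06 and 2.56 with siPARP2_A and 1.78 and 1.01 with siPARP2_B. Each target was thus low in its own libraries, and PARP1 was also low with siPARP2_B. In the inhibitor experiment PARP1 lay between 433 and 431 CPM with olaparib and 573 and 597 CPM with veliparib, and a transcript level does not show that an enzyme was inhibited. Of the markers of luminal prostate cells, the secreted protease gene KLK3 was at 1429 and 1444 CPM with DMSO and 1176 and 1413 normalised reads with siNC, and of the basal, stromal and immune markers only COL1A1 passed 2. KLK3 was at 181 and 179 CPM with olaparib, and at 645 and 649 normalised reads with siPARP1_A, 1165 and 1121 with siPARP1_B, 504 and 503 with siPARP2_A and 198 and 171 with siPARP2_B. The part of these shifts in the results on LINC genes was not tested.

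The 117 genes together made up a small share of each library: 0.146% to 0.163% of the recovered reads in the inhibitor libraries and 0.11% to 0.143% in the siRNA libraries. Their median level was 1.98 CPM with DMSO, 30 of them lay below 1 CPM and 28 at 10 CPM or more. Just inside the choice stood LINC01060 at 0.502 CPM and LINC00856 and LINC01237 at 0.512 CPM, and just outside LINC00324 and LINC00925 at 0.497 CPM. With siNC, LINC01410 at 0.518 and LINC00910 at 0.522 normalised reads were just inside, and LINC01134 at 0.489 just outside. The highest level belonged to LINC00657, now NORAD, an abundant cytoplasmic RNA that binds PUMILIO proteins, at 454 and 455 CPM with DMSO and 588 and 533 normalised reads with siNC. Per kb of the longest v29 transcript, its mean was 85.1 CPM and LINC00493, now SMIM26, followed with 82.9 CPM and LINC00998, now SMIM30, with 69.6 CPM. With siNC the order was LINC00493 at 115, LINC00657 at 105 and LINC00998 at 103 normalised reads per kb. LINC00493 and LINC00998 encode small membrane proteins.

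Some levels differed between the experiments. LINC00161 was at 7.57 and 8.53 CPM with DMSO and 57.5 and 52.9 normalised reads with siNC. LINC01278 was at 46.1 and 49.0 CPM against 2.01 and 2.53 normalised reads. The experiments differ in treatment, duration and normalisation, and the 2 sets of values stand side by side only.

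Because control levels chose the genes, a count of calls against a control uses the libraries of the choice again. Each main count over all LINC genes is therefore followed by that over the genes that the other experiment's control chose. Counts with a library left out or with another method have no such second count. Neither do those over lists, neighbour pairs or promoter classes, or those shared between experiments. An adjusted p for a gene against a control is given only where its mean reaches 0.5 in the control of the other experiment, which has no part in that comparison. For the other genes the values stand without a test. Differences are log2 differences on the log2(value + 0.5) scale from limma, which understate the change of low genes, and a gene was called at an adjusted p (Benjamini-Hochberg over all genes tested) below 0.05. Every gene named as risen or fallen had libraries of the 2 sides that did not overlap, unless stated.

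Olaparib moved the most LINC genes of the 3 inhibitors. Against DMSO 25 of 117 rose and 17 fell, 35.9% of them, where 45% of all 16325 genes tested were called. Over the 71 genes that siNC chose, 19 rose and 9 fell. Without olaparib replicate 2 the counts over the 117 were 17 and 11. The median difference was 0.00 over the 117, 0.14 over these 71 and 0.00 over all genes.

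The deepest fall with olaparib was that of LINC01297, now listed as PSLNR. It was at 3.53 and 4.44 CPM with DMSO, 4.41 and 4.26 with UPF1069, 3.89 and 4.76 with veliparib and 0.393 and 0.560 with olaparib. Only the olaparib libraries were low, and their difference from DMSO was -2.20 ± 0.14 (SE, adjusted p = 3.18e-12). Against the other inhibitors the differences were -2.30 ± 0.14 (SE, adjusted p = 1.13e-12) for olaparib minus veliparib and 2.31 ± 0.14 (SE, adjusted p = 1.50e-12) for UPF1069 minus olaparib. LINC00844, an RNA described in prostate cells, fell from 0.657 and 0.794 to 0.212 and 0.308 CPM with olaparib, a difference of -0.69 ± 0.17 (SE, adjusted p = 0.00157). This gene is so low that the pseudocount shapes its value: edgeR on the recovered reads gave -1.46 and a pseudocount of 1 gave -0.45. LINC01341 fell from 2.94 and 2.32 to 1.51 and 1.37 CPM and LINC01128 from 27.9 and 30.9 to 20.2 and 20.3 CPM, with differences of -0.68 and -0.52. LINC00963, which has been studied in prostate cancer, fell from 57.0 and 56.9 to 47.8 and 45.3 CPM, a difference of -0.29 ± 0.05 (SE, adjusted p = 2.72e-05).

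Larger rises with olaparib were seen at LINC00648, LINC01137 and LINC00936. LINC00648 was at 5.53 and 5.47 CPM with DMSO and 13.9 and 15.4 CPM with olaparib, a difference of 1.33 ± 0.10 (SE, adjusted p = 3.94e-11). LINC01137, now ZC3H12A-DT, which shares a start with the gene of the ribonuclease ZC3H12A, went from 12.7 and 11.7 to 31.3 and 30.2 CPM, a difference of 1.30 ± 0.07 (SE, adjusted p = 1.57e-13). LINC00936, whose CG-rich promoter is printed above and which starts beside the calcium pump gene ATP2B1, was at 2.32 and 2.62 CPM with DMSO, 2.93 and 3.005 with UPF1069, 2.54 and 2.23 with veliparib and 6.69 and 6.28 with olaparib. It has no row in the siRNA experiment, so its test is given between inhibitors, 1.28 ± 0.13 (SE, adjusted p = 4.74e-09) for olaparib minus veliparib. LINC00936 overlaps ATP2B1 on the opposite strand, so the reads of these genes cannot be told apart. In all 3 genes both olaparib libraries lay far above the other 6.

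Smaller rises with olaparib reached other well-measured genes. LINC00472 rose from 1.35 and 1.29 to 3.18 and 3.03 CPM (0.98 ± 0.15 SE, adjusted p = 5.92e-06), and LINC01133 from 3.28 and 3.38 to 6.90 and 6.61 CPM (0.92 ± 0.12 SE, adjusted p = 6.38e-07). LINC01003 went from 21.6 and 21.8 to 40.6 and 39.2 CPM (0.86 ± 0.07 SE, adjusted p = 1.61e-10). For LINC01184, the divergent transcript of the ion cotransporter gene SLC12A2, the values were 21.4 and 20.2 CPM with DMSO and 32.0 and 30.6 CPM with olaparib (0.58 ± 0.07 SE, adjusted p = 1.22e-07). None of these calls ended under an alternative setting or with a library left out, and over all LINC genes 21 of the 42 calls held under every one of them.

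**Figure D1:**
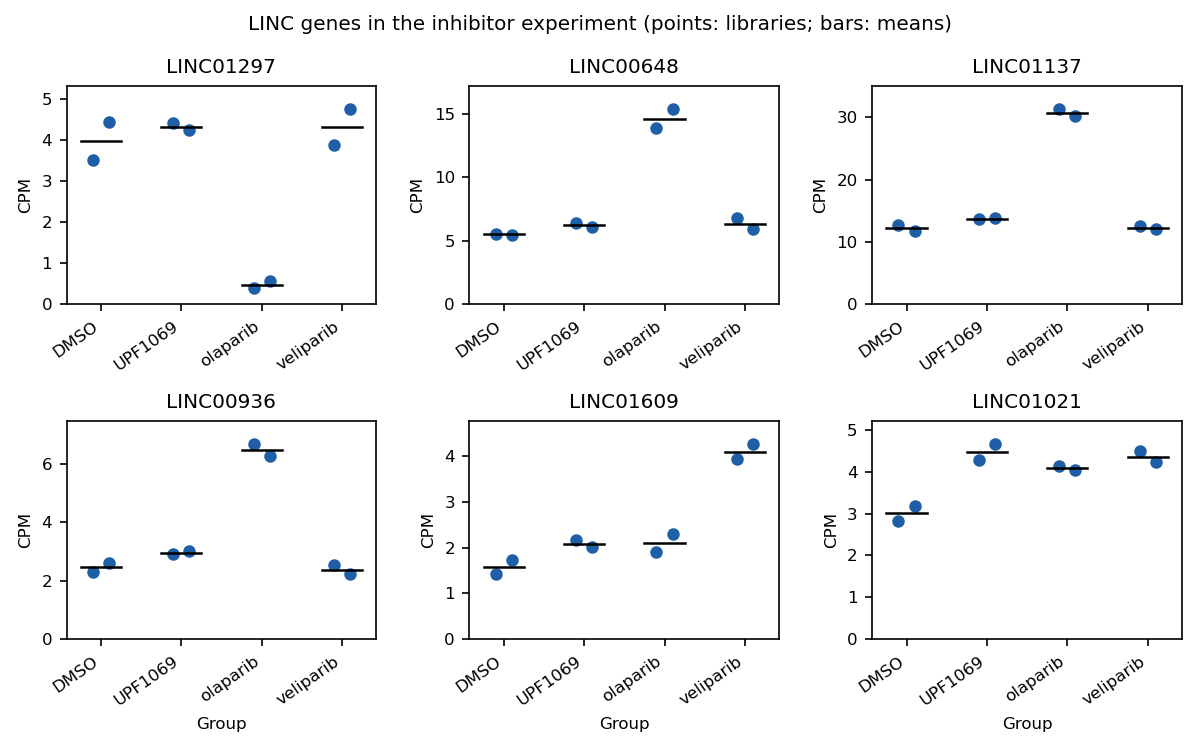
CPM (vertical axes, from 0) of 6 LINC genes in the 4 groups of the inhibitor experiment (horizontal axes), with points for the 2 libraries of a group and bars for their mean. Olaparib stands apart for LINC01297, LINC00648, LINC01137 and LINC00936, veliparib for LINC01609, and DMSO lies lowest for LINC01021.

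UPF1069 moved fewer of them. Against DMSO 6 rose and 11 fell, 14.5% of the 117, where 19.4% of all genes were called. Over the 71 genes chosen by siNC, 5 rose and 8 fell. The excess of falls rested on single libraries: 4 rose and 4 fell without UPF1069 replicate 1, 2 and 4 without UPF1069 replicate 2, 4 and 3 without DMSO replicate 1, and 5 and 5 without DMSO replicate 2. The split moved with the scaling: with edgeR 7 rose and 8 fell and with DESeq2 3 and 3, and over all genes rises made 52.8% and 49.9% of their calls against 43% in limma. Only 2 of the 17 calls held under every alternative and with each library left out: LINC00847 rose from 42.9 and 43.0 to 54.3 and 56.5 CPM (0.36 ± 0.05 SE, adjusted p = 1.50e-05), and LINC01128 fell from 27.9 and 30.9 to 22.2 and 22.8 CPM (-0.38 ± 0.06 SE, adjusted p = 1.15e-04). LINC00847 moved the other way with veliparib, to 35.1 and 37.3 CPM (-0.24 ± 0.05 SE, adjusted p = 6.86e-04), and it was 0.61 higher with UPF1069 than with veliparib (adjusted p = 1.37e-09).

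Among the rises with UPF1069 were 2 genes tied to the p53 response by earlier work. LINC01136, now BTG2-DT, starts beside the p53 target BTG2 and went from 0.484 and 0.441 to 0.977 and 1.25 CPM, a difference of 0.74 ± 0.17 (SE, adjusted p = 0.00229) whose call was lost without UPF1069 replicate 2 (0.62, adjusted p = 0.0608) and that edgeR put at 1.29. With olaparib LINC01136 rose as well, by 0.64 (limma, adjusted p = 0.00261), while BTG2 was at -0.09 (adjusted p = 0.133). With siPARP1_B LINC01136 was at 0.80 and BTG2 at -0.40, and with siPARP2_B they were at 0.61 and 0.58. LINC01021, now PURPL, an RNA induced by p53, went from 2.84 and 3.18 to 4.29 and 4.66 CPM with UPF1069 (0.51 ± 0.12 SE, adjusted p = 0.00344). Significance was lost when UPF1069 replicate 2 was left out (0.45, adjusted p = 0.0608), and likewise without DMSO replicate 1 (0.44, adjusted p = 0.0622). LINC01021 also rose with olaparib, to 4.15 and 4.03 CPM (0.39 ± 0.12 SE, adjusted p = 0.00934), and with veliparib, to 4.50 and 4.23 CPM (0.47 ± 0.12 SE, adjusted p = 0.00317). All 6 inhibitor libraries lay above both DMSO libraries, which the 3 comparisons share. Without DMSO replicate 1 neither call held (0.32, adjusted p = 0.0981, with olaparib and 0.40, adjusted p = 0.0533, with veliparib), and the one with olaparib was also lost without olaparib replicate 1 (0.37, adjusted p = 0.0588) and with DESeq2 (0.45, adjusted p = 0.0724).

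LINC00923 and LINC01341 had the lowest values relative to DMSO in the UPF1069 libraries. LINC00923 was at 0.934 and 1.26 CPM with DMSO and 0.473 and 0.407 CPM with UPF1069, and its difference of -0.76 lost its call without DMSO replicate 2 (-0.61, adjusted p = 0.0811), while edgeR gave -1.31. LINC01341 went from 2.94 and 2.32 to 1.64 and 1.16 CPM, and its difference of -0.73 lost its call without UPF1069 replicate 2 (-0.54, adjusted p = 0.0607) and without DMSO replicate 1 (-0.58, adjusted p = 0.0518). The median over the 117 genes was -0.02, as over all genes.

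Veliparib gave 8 rises and 12 falls, 17.1% of the 117, where 32.7% of all genes were called. Over the 71 genes chosen by siNC, 6 rose and 8 fell. The split turned with single libraries: 14 rose and 9 fell without veliparib replicate 2, 8 and 4 without DMSO replicate 2, and 3 and 5 without DMSO replicate 1. DESeq2 called 4 and 7. LINC01609 had the largest rise, from 1.42 and 1.74 CPM with DMSO to 3.93 and 4.26 CPM (1.15 ± 0.14 SE, adjusted p = 6.50e-07). The UPF1069 libraries held 2.175 and 2.003 CPM and the olaparib libraries 1.91 and 2.30 CPM, and veliparib exceeded each of them, with differences of -0.83 for UPF1069 minus veliparib and -0.82 for olaparib minus veliparib. LINC00504 rose from 5.98 and 5.15 to 8.15 and 8.53 CPM (0.55 ± 0.11 SE, adjusted p = 2.85e-04). LINC00657 rose from 454 and 455 to 525 and 502 CPM (0.18 ± 0.04 SE, adjusted p = 5.13e-04). LINC01003, which rose with olaparib, fell with veliparib to 18.7 and 15.7 CPM (-0.33 ± 0.07 SE, adjusted p = 6.09e-04), by 0.21 without veliparib replicate 2.

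Another 2 measures, of RNA composition, moved with veliparib. Across the 116 LINC genes with a v29 transcript, Spearman's rho between the GC content of the transcript and the veliparib difference was -0.42, and over all 15861 genes with one it was -0.62, given as descriptions over genes of the same libraries. The median difference was 0.08 for LINC genes below the median GC content of 47.9% and -0.07 for those above it. RNAs without a poly(A) tail were higher as well: 6 of 6 tested rose, where 13.7% of all genes rose. The summed level of the 8 with a row, tested or not, was 125.3 and 123 CPM with DMSO and 779 and 847 CPM with veliparib. It was 182.7 to 237 with UPF1069 and 133 to 258 with olaparib. With UPF1069 4 of the 6 rose and with olaparib 5, where 8.36% and 21.7% of all genes rose. The part of either measure in the LINC results was not tested.

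Between inhibitors, given at the same dose and time, no control library enters. For UPF1069 minus olaparib 14 LINC genes were higher and 32 lower, where 43.6% of all genes were called, and these became 6 and 19 without UPF1069 replicate 1, 9 and 22 without UPF1069 replicate 2, 8 and 24 without olaparib replicate 1, 8 and 17 without olaparib replicate 2, and 8 and 18 with DESeq2. For UPF1069 minus veliparib 8 were higher and 14 lower, where the share over all genes was 42.3%. Without veliparib replicate 1 they were 14 and 15, and without UPF1069 replicate 1 they were 6 and 9. For olaparib minus veliparib 29 were higher and 21 lower, where it was 51%, and without olaparib replicate 1 they were 24 and 13. LINC00648, LINC01137, LINC00472, LINC01133 and LINC01003 were all higher with olaparib than with either other inhibitor, and olaparib minus veliparib ran from 0.94 for LINC00472 to 1.29 for LINC01137. LINC00957 was at 4.69 and 4.93 CPM with olaparib and 3.04 and 1.96 with veliparib (0.85 ± 0.14 SE, adjusted p = 1.86e-05). LINC01573, now NALT1, was at 2.21 and 1.72 CPM with UPF1069 and 0.715 and 1.17 with veliparib (0.78 ± 0.17 SE, adjusted p = 5.26e-04).

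**Figure D2:**
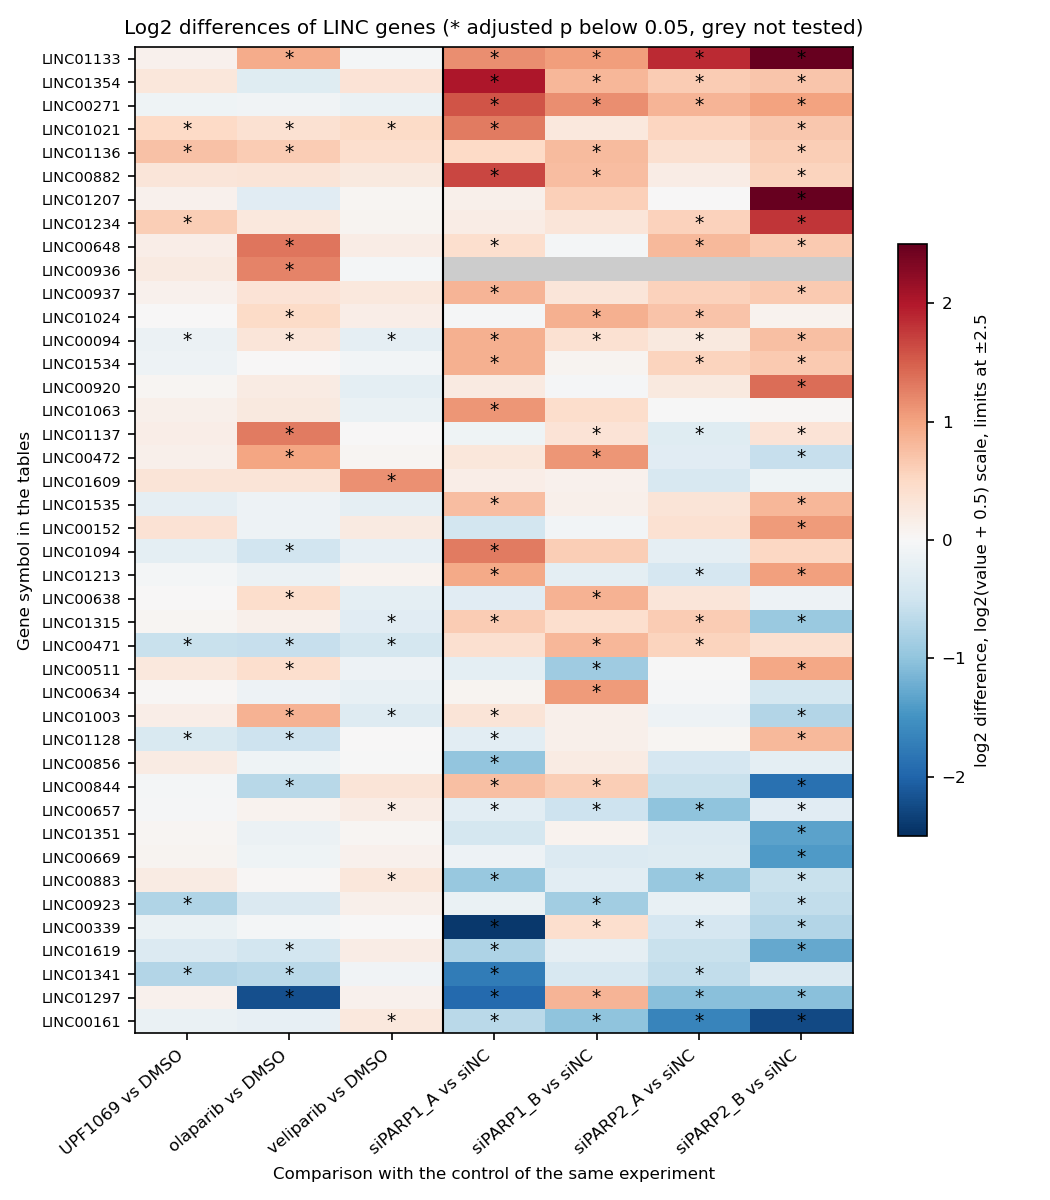
Log2 differences (colour scale limited at 2.5 in either direction) of the 42 LINC genes with a called difference of at least 0.8 in any comparison with a control (rows) across the 7 comparisons with a control (columns), with asterisks for calls and grey for genes with no row. LINC01133 is red and LINC00161 blue in every siRNA column, while LINC00339 and LINC01297 change colour between the siPARP1 sequences.

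With siPARP1_A 26 of 105 rose and 13 fell (47.1% of all 15371 genes tested were called), and with siPARP1_B 26 rose and 5 fell (34.1% of all). With siPARP2_A 22 rose and 11 fell (41.6% of all), and with siPARP2_B 29 rose and 22 fell (58.4% of all). Over the 98 tested genes that DMSO chose, the rises and falls were 25 and 11, 24 and 5, 22 and 10, and 28 and 20 in the same order. With siPARP2_A the excess of rises was lost without siNC replicate 1 (10 rose and 10 fell), and the counts were 13 and 6 without siNC replicate 2, 14 and 9 without siPARP2_A replicate 1 and 13 and 8 without siPARP2_A replicate 2. DESeq2 gave 11 and 6 with siPARP2_A and 15 and 3 with siPARP1_B. With siPARP1_A, siPARP1_B and siPARP2_B rises outnumbered falls with each library left out. The median differences over these 98 were 0.18, 0.20, 0.05 and 0.05, where those over all genes ran from -0.02 to 0.01. Of all genes tested 22.7%, 14.4%, 20.4% and 28.2% rose and 24.4%, 19.6%, 21.2% and 30.2% fell.

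LINC01133 rose with all 4 siRNAs. Its level was 5.13 and 3.56 normalised reads with siNC, 10.4 and 10.0 with siPARP1_A, 10.7 and 8.22 with siPARP1_B, 18.7 and 15.4 with siPARP2_A and 39.4 and 39.1 with siPARP2_B. All 8 libraries lay above both siNC libraries, which the 4 comparisons share, and the differences were 1.16, 1.05, 1.87 and 3.06, with adjusted p from 1.85e-06 to 3.19e-16. Within the siPARP2 sequences siPARP2_B was the higher, with -1.18 ± 0.14 (SE, adjusted p = 5.97e-08) for A minus B. The siPARP2 mean was 1.36 ± 0.10 (SE, adjusted p = 7.62e-12) above the siPARP1 mean.

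LINC00161 fell with all 4. It was at 57.5 and 52.9 normalised reads with siNC, 33.0 and 36.2 with siPARP1_A, 26.6 and 27.9 with siPARP1_B, 17.4 and 17.2 with siPARP2_A and 10.6 and 11.7 with siPARP2_B. No library of any siRNA reached the siNC level, and the groups did not overlap each other. The differences from siNC were -0.67, -1.01, -1.65 and -2.26 (adjusted p from 7.59e-07 to 1.15e-17), and the siPARP2 mean was -1.12 ± 0.06 (SE, adjusted p = 3.62e-14) relative to the siPARP1 mean. In the inhibitor experiment LINC00161 was at 7.57 and 8.53 CPM with DMSO, 7.41 and 6.89 with UPF1069, 7.35 and 6.5 with olaparib and 10.5 and 9.10 with veliparib, and the veliparib difference of 0.27 lost its call without veliparib replicate 1 (0.17, adjusted p = 0.306), DMSO replicate 1 (0.19, adjusted p = 0.341) or DMSO replicate 2 (0.35, adjusted p = 0.0518).

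LINC00657 (NORAD), named for its induction by DNA damage, was the other gene lower with all 4. It was at 588 and 533 normalised reads with siNC, 469 and 458 with siPARP1_A, 377 and 408 with siPARP1_B, 274 and 287 with siPARP2_A and 463 and 458 with siPARP2_B. Its differences were -0.27, -0.51, -0.996 and -0.28 (adjusted p from 3.82e-04 to 2.51e-13). siPARP2_A libraries were the lowest.

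The other genes higher with all 4 siRNAs were LINC00271, LINC01184, LINC00094 and LINC01354. LINC00271 (AHI1-DT) was at 0.195 and 0.230 normalised reads with siNC, 1.63 and 1.59 with siPARP1_A, 0.999 and 1.17 with siPARP1_B, 0.5505 and 1.06 with siPARP2_A and 1.07 and 0.789 with siPARP2_B. Its differences were 1.57, 1.15, 0.85 and 0.999, edgeR put them at 2.87, 2.32, 1.87 and 2.08, and the siPARP2_A call ended without siPARP2_A replicate 2 (0.56, adjusted p = 0.13). LINC01184 was at 22.1 and 22.6 with siNC, 38.5 and 36.6 with siPARP1_A, 29.1 and 29.8 with siPARP1_B, 27.0 and 29.1 with siPARP2_A and 29.9 and 29.1 with siPARP2_B, and its 4 calls, from 0.32 to 0.73, held under every alternative. LINC00094, now the coding gene BRD3OS, was at 31.6 and 35.5 with siNC and 62.2 and 62.1 with siPARP1_A, and its differences ran from 0.25 with siPARP2_A, where the call ended without siPARP2_A replicate 2 (0.16, adjusted p = 0.228) and without siNC replicate 1 (0.16, adjusted p = 0.189), to 0.88 with siPARP1_A. LINC01354 was at 0.455 and 0.689 with siNC and 4.35 and 3.31 with siPARP1_A (2.01 ± 0.23 SE, adjusted p = 5.03e-08). With the other 3 siRNAs its differences of 0.84, 0.64 and 0.69 each lost their call without siNC replicate 1 (0.68, 0.49 and 0.54, adjusted p = 0.0775, 0.196 and 0.118). They also ended without replicate 2 of the siRNA itself (0.62, 0.47 and 0.50, adjusted p = 0.112, 0.22 and 0.135).

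**Figure D3:**
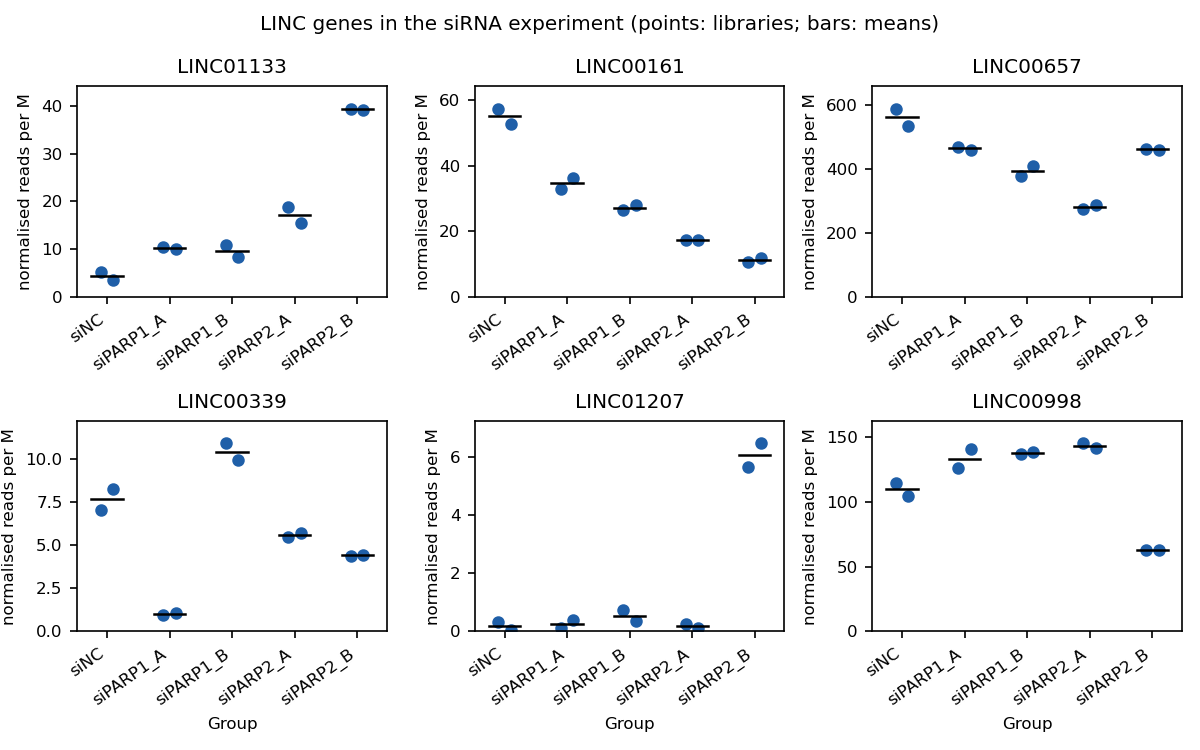
Normalised reads per M (vertical axes, from 0) of 6 LINC genes in the 5 groups of the siRNA experiment (horizontal axes), with points for the 2 libraries of a group and bars for their mean. LINC01133 lies above and LINC00161 and LINC00657 lie below siNC in all 8 libraries of the 4 siRNAs, while LINC00339 is lowest with siPARP1_A, LINC01207 highest and LINC00998 lowest with siPARP2_B.

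In other genes the sequences of a target differed. LINC00339 was at 7.08 and 8.27 normalised reads with siNC, 0.967 and 1.08 with siPARP1_A and 10.9 and 9.95 with siPARP1_B, so its difference was -2.42 ± 0.16 (SE, adjusted p = 9.73e-13) with A and 0.42 with B, and -2.84 between them. The call with B was lost without siPARP1_B replicate 1 (0.36, adjusted p = 0.204) or 2 (0.49, adjusted p = 0.078), without siNC replicate 1 (0.32, adjusted p = 0.243), with DESeq2 (0.46, adjusted p = 0.108) and with no filter (0.42, adjusted p = 0.057). LINC00339 was at 5.50 and 5.69 with siPARP2_A and 4.40 and 4.45 with siPARP2_B. It fell with siPARP2_B (-0.73 ± 0.16 SE, adjusted p = 2.72e-04), and its siPARP2_A difference of -0.42 lost its call without siPARP2_A replicate 1 (-0.40, adjusted p = 0.126) or 2 (-0.44, adjusted p = 0.0926) and without siNC replicate 2 (-0.31, adjusted p = 0.229). LINC01297 was at 2.21 and 3.33 with siNC, 0.363 and 0.319 with siPARP1_A, 5.53 and 5.04 with siPARP1_B, 1.04 and 1.06 with siPARP2_A and 1.07 and 1.07 with siPARP2_B. Only siPARP1_B lay above siNC, by 0.84, a call that ended without siNC replicate 1 (0.59, adjusted p = 0.0773). The differences of the other 3 were -1.94, -1.05 and -1.04, and edgeR put that of siPARP1_A at -3.01. LINC00882 was at 0.584 and 0.287 with siNC, 2.30 and 2.61 with siPARP1_A, 0.999 and 1.17 with siPARP1_B, 0.673 and 0.438 with siPARP2_A and 1.07 and 0.676 with siPARP2_B. Its siPARP1_A difference was 1.68 ± 0.24 (SE, adjusted p = 1.39e-06), which DESeq2 put at 2.52. The siPARP1_B difference of 0.78 lost its call without siPARP1_B replicate 2 (0.70, adjusted p = 0.085) or siNC replicate 2 (0.55, adjusted p = 0.162), and the siPARP2_B difference of 0.56 without siPARP2_B replicate 1 (0.35, adjusted p = 0.327) or siNC replicate 2 (0.33, adjusted p = 0.349). LINC01021 (PURPL), higher with each inhibitor, was at 0.714 and 0.517 with siNC, 2.36 and 2.102 with siPARP1_A and 0.666 and 1.04 with siPARP1_B (1.30 ± 0.24 SE, adjusted p = 5.38e-05 with A).

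siPARP2_B gave the largest rises of the 4 siRNAs. LINC01207, now SMIM31, was at 0.325 and 0.0574 normalised reads with siNC, 0.245 and 0.125 with siPARP2_A and 5.65 and 6.48 with siPARP2_B, a difference of 3.27 ± 0.26 (SE, adjusted p = 2.23e-11) that edgeR put at 4.997. LINC01234 went from 0.649 and 0.804 to 3.93 and 3.55 (1.79 ± 0.22 SE, adjusted p = 7.59e-08), LINC00920 from 0.974 and 1.49 to 4.34 and 3.66 (1.39 ± 0.22 SE, adjusted p = 5.93e-06), and LINC00152, now CYTOR, which has a near-identical copy in MIR4435-2HG so that its reads are uncertain, from 2.14 and 2.47 to 5.47 and 5.30 (1.07 ± 0.21 SE, adjusted p = 6.70e-05). All 3 were above siNC in both libraries. LINC00844, lower with olaparib as well, fell from 1.43 and 1.44 normalised reads, 47 reads in all, to 1 read over the 2 siPARP2_B libraries. The ratio was 0.0202, with an exact 95% interval from 5.01e-04 to 0.118 that covers counting error only. It was at 2.60 and 2.93 with siPARP1_A, 2.997 and 2.003 with siPARP1_B and 1.04 and 0.625 with siPARP2_A, and its siPARP2 mean was -1.90 ± 0.16 (SE, adjusted p = 1.06e-10) relative to the siPARP1 mean. LINC01351, now BRINP3-DT, fell from 2.92 and 2.30 to 0.833 and 0.620 with siPARP2_B (-1.34 ± 0.20 SE, adjusted p = 2.10e-06) and LINC00669 from 2.08 and 2.182 to 0.654 and 0.338 (-1.42 ± 0.24 SE, adjusted p = 9.64e-06).

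Between sequences of a target, 21 LINC genes were higher and 22 lower for siPARP1_A minus siPARP1_B, where 47.4% of all genes were called, and 19 and 19 without siPARP1_B replicate 1. For siPARP2_A minus siPARP2_B 17 were higher and 22 lower, where 57.1% of all were called. For the siPARP2 mean minus the siPARP1 mean 16 were higher and 32 lower, where 58.1% of all were called. Only 16 of these calls, in either direction, had libraries of the 2 targets that did not overlap. The rest can come from 1 sequence of a target. LINC00511 was higher with siPARP2, at 2.45 and 2.44 normalised reads with siPARP2_A and 5.59 and 4.96 with siPARP2_B, against 2.06 and 1.97 with siPARP1_A and 1.33 and 0.898 with siPARP1_B (1.04 ± 0.14 SE, adjusted p = 2.50e-07). LINC00472 was lower, at 1.22 and 0.625 with siPARP2_A and 0.654 and 0.620 with siPARP2_B, against 1.81 and 1.34 with siPARP1_A and 3.26 and 3.04 with siPARP1_B (-1.12 ± 0.16 SE, adjusted p = 1.05e-06). LINC00649, at 3.85 and 3.94 with siPARP2_A, 7.02 and 5.80 with siPARP2_B, 7.62 and 7.84 with siPARP1_A and 9.19 and 7.94 with siPARP1_B, was lower as well (-0.65 ± 0.10 SE, adjusted p = 5.42e-06).

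A list of 13 LINC symbols known to have been given to small-protein genes or to renamed RNAs was followed as well, of which 7 were tested in the inhibitor and 5 by symbol in the siRNA experiment. The 7 are only part of the 35 LINC genes that now have another symbol. With olaparib, where 45% of all genes were called, 4 of 7 rose and none fell: LINC00998 (73.1 and 75.7 to 89.0 and 89.3 CPM, 0.26 ± 0.06 SE, adjusted p = 0.00168), LINC00094, LINC01420 and LINC00936. LINC00936 was chosen by DMSO alone and has no row with siNC. Nothing is read from its call or from the count of 4. LINC01420, now NBDY, encodes a small protein of P-bodies and went from 23.3 and 24.5 to 29.2 and 29.1 CPM (0.28 ± 0.06 SE, adjusted p = 7.43e-04). With UPF1069 none of 7 rose and LINC00094 fell, with a difference of -0.16, a call lost with edgeR (-0.14, adjusted p = 0.0616), with DESeq2 (-0.14, adjusted p = 0.169), without UPF1069 replicate 1 (-0.17, adjusted p = 0.137) or 2 (-0.14, adjusted p = 0.229) and without DMSO replicate 2 (-0.10, adjusted p = 0.418). With veliparib LINC00657 and LINC00998 rose and LINC00094 fell, and the last of these calls was lost without DMSO replicate 2 (-0.17, adjusted p = 0.0743). That of LINC00998 (0.21) was lost without veliparib replicate 1 (0.04, adjusted p = 0.499), without DMSO replicate 1 (0.18, adjusted p = 0.117) and with DESeq2 (0.23, adjusted p = 0.0963), and it was 0.38 without veliparib replicate 2. LINC00493 (SMIM26), at 76.4 and 78.0 normalised reads with siNC, was at 90.9 and 104 with siPARP1_A, 70.5 and 68.9 with siPARP1_B, 94.1 and 97.1 with siPARP2_A and 125 and 116 with siPARP2_B. It rose with 3 of the 4 siRNAs, by 0.33, 0.31 and 0.64, and its siPARP1_B difference was -0.15 (adjusted p = 0.101). LINC00998 (SMIM30) stood at 115 and 105 with siNC, 126 and 141 with siPARP1_A, 137 and 139 with siPARP1_B and 145 and 142 with siPARP2_A, and at 62.9 and 62.9 with siPARP2_B. It rose with the first 3, by 0.28, 0.33 and 0.39, and its siPARP2_B difference was -0.80 ± 0.06 (SE, adjusted p = 2.89e-11).

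LINC genes that start beside a coding gene on the other strand were compared with that neighbour. In the inhibitor experiment 22 pairs were tested, and of those with both called 2 of 2 with UPF1069, 6 of 7 with olaparib and 1 of 1 with veliparib had the same direction. With olaparib LINC01137 and ZC3H12A were at 1.30 and 0.74, LINC00936 and ATP2B1 at 1.24 and 0.91, and LINC01184 and SLC12A2 at 0.58 and 0.61. The exception was LINC01134, at 0.54, whose neighbour C1orf174 was at -0.44. With UPF1069 LINC01136 and BTG2 were at 0.74 and 1.44, and LINC01573 and the receptor gene NOTCH1 at 0.61 and 0.60. LINC01134, LINC00936 and LINC01573 were chosen by DMSO alone and lie below 0.5 or have no row with siNC. Nothing is read from their calls against DMSO, nor from the counts of pairs above, which include them. No such count was made over other neighbouring genes in either experiment. LINC01134 was at 0.36 without olaparib replicate 2, and LINC01573 at 0.47 without UPF1069 replicate 1.

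In the siRNA experiment the 19 tested pairs split. Of the pairs with both called, 2 of 5 had the same direction with siPARP1_A, 1 of 5 with siPARP1_B, 3 of 5 with siPARP2_A and 4 of 4 with siPARP2_B. LINC01184 rose with siPARP1_A, siPARP1_B and siPARP2_A while SLC12A2 fell, at -1.20, -0.54 and -0.30. LINC01351 and BRINP3 fell together with siPARP2_B, with differences of -1.34 and -0.83. Pairs that share a start can share reads where they overlap, and without strand such reads cannot be assigned.

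**Figure D4:**
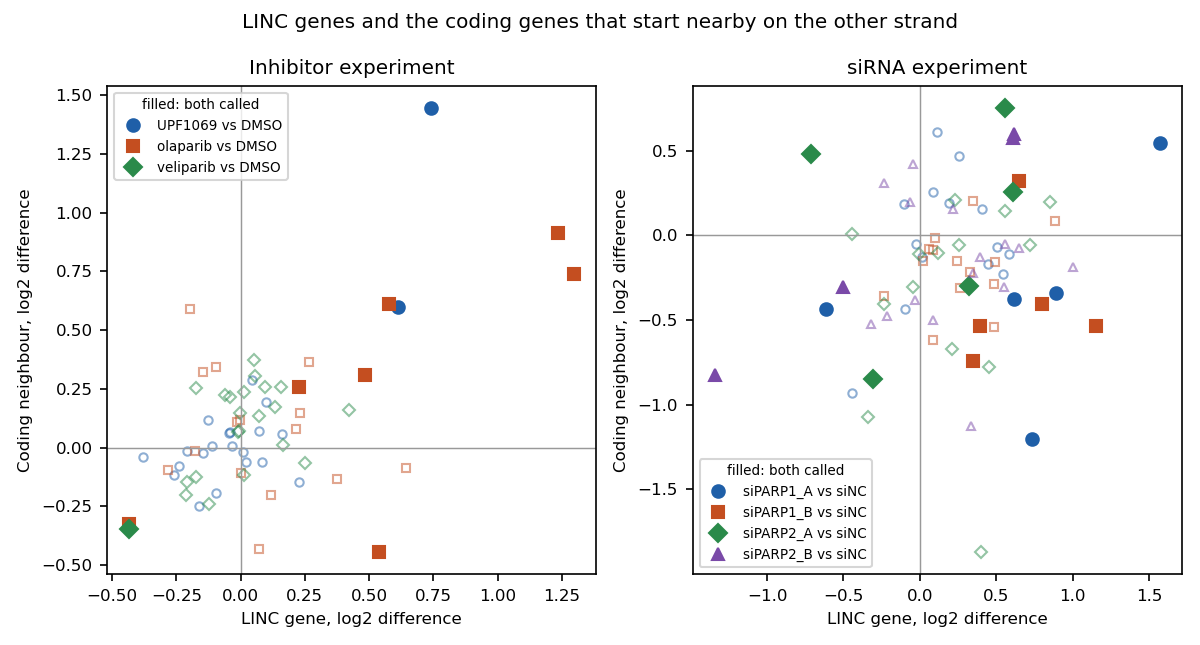
Log2 differences of LINC genes (horizontal axes) and of the coding genes that start within 1000 bases on the other strand (vertical axes) in the inhibitor (left) and siRNA experiment (right), with filled points where both were called. Filled points of the inhibitor experiment lie in the lower left and upper right except LINC01134 and C1orf174 with olaparib, while those of the siRNA experiment lie on both sides of 0 on both axes.

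The promoters of the 88 genes with a RefSeq entry held a median of 15 CG dinucleotides, where the 35116 RefSeq promoters of the same length held 14, and 53 of the 88 (60.2%) held at least 10, as did 56.4% of all. LINC00595 and LINC00856 were matched by symbol to the same promoter, with 3 CG, which is counted for both. The CG pair reads the same on both strands, and the limit of 10 was chosen after the values were seen. With olaparib, where 45% of all genes were called, 18 of the 53 genes with at least 10 CG rose and 7 fell, and of the 35 with fewer 4 rose and 7 fell. With veliparib 3 of the 53 CG-rich genes rose and 12 fell, against 2 and 0 among CG-poor genes, where 32.7% of all genes were called. With UPF1069 2 rose and 8 fell, against 4 and 1, where 19.4% of all were called. These counts against DMSO are over genes that DMSO mostly chose. They were not made over the genes that siNC chose, and nothing is read from them. A called difference of at least 1 on the log2 scale was seen for 4 of 48 CG-rich and 6 of 31 CG-poor genes with siPARP1_A, 2 and 3 with siPARP1_B, 0 and 3 with siPARP2_A, and 1 and 11 with siPARP2_B, LINC01133, LINC00161, LINC00844 and LINC01207 among the last. With olaparib it was 1 of 53 and 1 of 35. Of all genes 47.1%, 34.1%, 41.6% and 58.4% were called at any size with the 4 siRNAs in this order. The split by CG count and the share at this size were not computed over all genes. Neither is read as a trait of LINC genes. CG-poor genes were also lower, with a median siNC level of 1.10 against 2.54 normalised reads and a median SE of 0.23 against 0.20, and the part of level in this contrast was not tested.

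**Figure D5:**
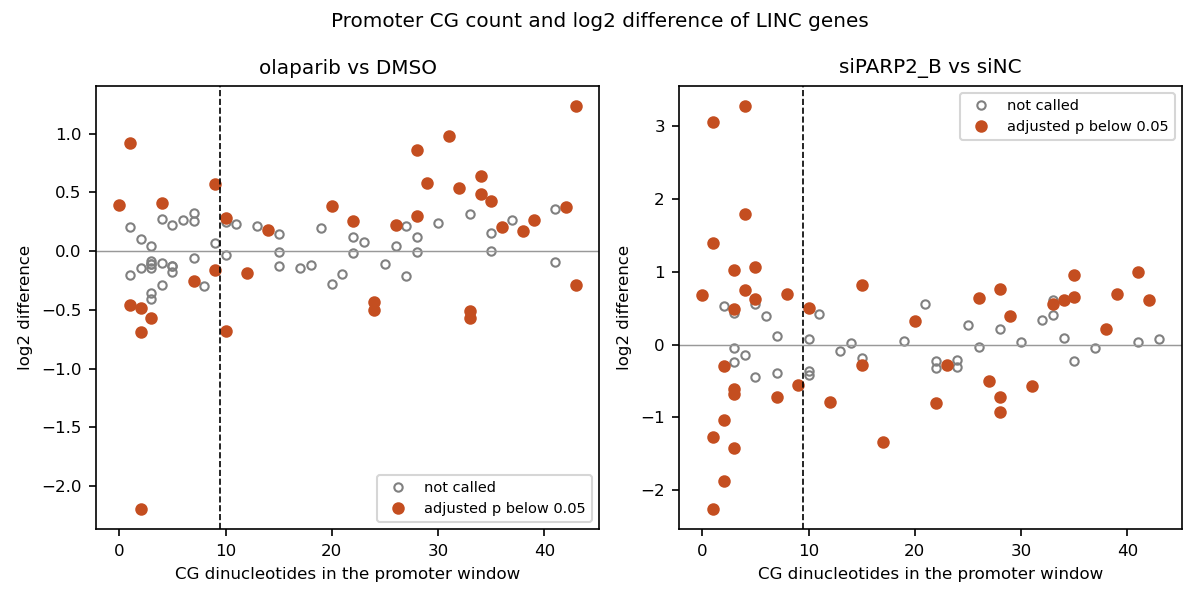
Log2 difference of LINC genes (vertical axes) against the number of CG dinucleotides in the 300-base promoter window (horizontal axes) for olaparib (left) and siPARP2_B (right), with filled points for calls and a dashed line between 9 and 10 CG. Of the 12 calls with siPARP2_B at or beyond 1 in size, 11 lie left of the line, on both sides of 0.

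The inhibitor and siRNA comparisons share no library, and their LINC calls can be set side by side. Of the 105 genes tested in both, olaparib called 39 and siPARP2_B 51, with 25 in both (64.1% and 49% of the lists, over all genes 67.8% and 54.9%), and 21 of these had the same direction (84%, where it was 66.3% over all genes called in both). For olaparib and siPARP1_A 19 were called in both, 48.7% of either list (over all genes 56.2% of either), and 17 had the same direction (89.5%, over all genes 51.8%). For olaparib and siPARP2_A it was 11 of 15 (73.3%, over all genes 53.7%), and for olaparib and siPARP1_B 11 of 19 (57.9%, over all genes 46.1%). With veliparib it was 5 of 13, 1 of 6, 2 of 9 and 5 of 11, in the order siPARP1_A to siPARP2_B. Over all genes these shares were 48.5%, 54.3%, 50.4% and 52.3%. With UPF1069 it was 5 of 7, 3 of 5, 2 of 7 and 5 of 8. Over all genes they were 47.8%, 48.1%, 38.7% and 58.1%. The LINC genes were chosen by the DMSO and siNC libraries that enter these differences, and the set of all genes was not. The shares of an inhibitor also use the same inhibitor libraries again. Their distance from the shares over all genes is therefore not read as a trait of LINC genes. Across the 105 genes Pearson's r with olaparib was 0.29, 0.02, 0.36 and 0.28 for siPARP1_A, siPARP1_B, siPARP2_A and siPARP2_B, and Spearman's rho 0.17, 0.05, 0.29 and 0.27, as descriptions over genes that are not independent replicates. Over all 14605 genes r was 0.07, -0.04, 0.20 and 0.28. With UPF1069 r over the 105 was 0.16, 0.18, 0.13 and 0.22 and over all genes -0.02, -0.05, -0.06 and 0.16, and with veliparib it was 0.01, -0.07, -0.15 and -0.04 over the 105 and between -0.01 and 0.02 over all genes. LINC01133, LINC00094 and LINC01184 rose with olaparib and with all 4 siRNAs.

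Among long noncoding RNAs outside the LINC symbols, 7 to 8 of a list of 14 prostate cancer RNAs were tested. With olaparib 5 of 8 fell and none rose, where 23.3% of all genes fell and 21.7% rose, ARLNC1 (-1.69 ± 0.17 SE, adjusted p = 6.38e-09) and PCA3 (-0.83 ± 0.18 SE, adjusted p = 4.91e-04) among them. With the siRNAs, where 47.1%, 34.1%, 41.6% and 58.4% of all genes were called, 4, 2, 5 and 4 of 7 fell and 0, 1, 1 and 1 rose, in the order siPARP1_A to siPARP2_B, and ARLNC1, an androgen-regulated RNA, was at -1.73, -0.80, -1.63 and -1.48. Of 18 tested host genes of small nucleolar RNAs, 11 fell and 1 rose with siPARP2_B, where 30.2% of all genes fell and 28.2% rose, and 15 of 18 were higher with siPARP2_A than with siPARP2_B and none lower, where 29.2% of all were higher and 27.9% lower. Of 12 widely expressed RNAs 5 rose and 2 fell with olaparib, where 45% of all genes were called, and NEAT1 was at 0.97 and MALAT1 at 0.70.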

How the data were processed

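Total RNA of 18 samples was made into libraries with a kit that does not mark strand, per the labels' protocols. The inhibitor table holds CPM values as deposited by the authors, and the siRNA table a signal as deposited by the authors, gene counts divided by scaled library sizes. In both, 100% of the values above 0 came out as whole reads within a tolerance of 0.01. Tools listed in the submitters' processing notes, without roles, are HTSeq 0.6.1, TopHat2 2.1.0, edgeR 3.12.0 and bcl2fastq 2.18, with the build hg19. The genome build of the tables is otherwise not given in the sources used here, and no coordinates of their genes are printed. No column was left unmapped (0).

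Values were tested as log2(value + 0.5) with limma 3.58.1 (trend, R 4.3.3) for genes averaging at least 0.25, all groups of a table in 1 fit, 13 comparisons, 2-sided, with Benjamini-Hochberg adjustment over all genes. Recovered reads were tested with edgeR 4.0.16 and DESeq2 1.42.0 as alternatives, beside other pseudocounts, filters, a fit of only the groups compared, a replicate block and each library left out. The fits were tested on simulated data. The p-values measure only the spread between the 2 libraries of a group. In limma that spread is pooled over all groups of a table and moderated by the trend over genes of similar level. The LINC genes and lists were chosen with earlier results of these data known. Named genes were the 8 largest called differences in each direction per comparison with libraries that did not overlap, those called alike by both sequences of a target or by all 4, the 10 highest in each control, those nearest the minimum of the choice, and members of the list of renamed genes. Promoters are from RefSeq, matched by symbol, and gene types, neighbours and lengths are from GENCODE v29, matched by identifier.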

Additional observations from a re-analysis of the deposited data

Results flagged for a closer look

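The following LINC genes were called in opposite directions against siNC by the 2 sequences of a target, with a called difference between the sequences. Both comparisons share the siNC libraries, and the difference A minus B does not use them.

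For PARP1, LINC00339 had a difference of -2.84 between siPARP1_A and siPARP1_B, being -2.42 and 0.42 against siNC. LINC01297 differed by -2.78, with -1.94 and 0.84, and its siPARP1_B call ended without siNC replicate 1 (0.59, adjusted p = 0.0773, limma). LINC00869 differed by -1.44, with values of 0.909 and 0.747 normalised reads with siNC, 0.363 and 0.319 with siPARP1_A and 1.998 and 1.59 with siPARP1_B. LINC00665 differed by -0.45, with -0.26 and 0.19. In limma fits with a library left out, the siPARP1_B call of LINC00339 was lost without siPARP1_B replicate 1 or 2 or siNC replicate 1 (0.36, 0.49 and 0.32), and that of LINC00665 without siPARP1_B replicate 2 or siNC replicate 2 (0.11 and 0.14). LINC00869 lost its siPARP1_A call without siPARP1_A replicate 2 or siNC replicate 1 (-0.62 and -0.57) and its siPARP1_B call without siPARP1_B replicate 1 or siNC replicate 2 (0.66 and 0.70). The differences between the siPARP1 sequences kept their calls in these 4 genes with each library left out.

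For PARP2, LINC01315 had a difference of 1.57 between siPARP2_A and siPARP2_B, with 3.70 and 3.45 normalised reads with siNC, 5.99 and 5.69 with siPARP2_A and 1.43 and 1.86 with siPARP2_B. LINC00998 (SMIM30) differed by 1.18 and LINC00665 by 1.02, both higher with siPARP2_A and lower with siPARP2_B than with siNC. LINC00665 was thus called by all 4 siRNAs, at 91.6 and 85.1 normalised reads with siNC, 73.8 and 73.3 with siPARP1_A, 95.4 and 107 with siPARP1_B, 99.8 and 108 with siPARP2_A and 49.3 and 52.6 with siPARP2_B. LINC00641 differed by 0.61, with 0.31 and -0.30 against siNC. LINC01213 differed by -1.44, with -0.42 and 1.03, and LINC01137 (ZC3H12A-DT) by -0.65, with -0.31 and 0.35. The siPARP2_A call of LINC00665 was lost without siPARP2_A replicate 2 or siNC replicate 2 (0.18 for both), and that of LINC01213 without siPARP2_A replicate 2 or siNC replicate 1 (-0.37 for both). LINC00641 lost its siPARP2_A call without siPARP2_A replicate 2 or either siNC replicate (0.22, 0.37 and 0.25) and its siPARP2_B call without either siPARP2_B replicate or siNC replicate 1 (-0.34, -0.26 and -0.24). LINC01137 lost its siPARP2_A call without siPARP2_A replicate 1 or siNC replicate 2 (-0.15 and -0.24) and its siPARP2_B call without siPARP2_B replicate 2 or siNC replicate 1 (0.27 and 0.28).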

How the results depend on the processing

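Over 285 differences of named genes, 256 of them called, the alternatives gave 3137 values with the same call, 276 that lost it, 6 that gained it and 0 with the opposite sign. DESeq2 ended 54 calls, edgeR 12, no filter on low values 10, only the groups compared 5, and the replicate block and a pseudocount of 0.25 ended 1 each. A pseudocount of 1 and a filter at a mean of 1 ended 0. With DESeq2 the counts of called LINC genes moved to 6 (UPF1069 against DMSO, from 17), 11 (veliparib against DMSO, from 20), 26 (UPF1069 against olaparib, from 46), 18 (siPARP1_B, from 31), 17 (siPARP2_A, from 33) and 26 (siPARP1_A against siPARP1_B, from 43), and the cause was not tested. With 1 library left out the counts ran from 6 to 10 for UPF1069, 8 to 23 for veliparib, 25 to 32 for UPF1069 against olaparib and 19 to 23 for siPARP2_A, fits in which fewer samples were used and the lone library was assumed to vary like the other groups.

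Replicate numbers gave no pairing: correlations of the deviations between groups lay between -0.09 and 0.05. The replicate block gave 17 calls for UPF1069, 43 for olaparib, 19 for veliparib, 37 and 32 for the siPARP1 sequences and 32 and 53 for the siPARP2 sequences. With 2 libraries a group and a median of 19 to 29 reads per LINC gene in the siRNA and 51 to 70 in the inhibitor libraries, small differences of low genes were not detectable at this depth.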
